A study of Homo sapiens with 24 samples.

Results

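The 10 genes described here encode the subunits of the hypoxia-inducible factors (HIF) and the proteins that tie those factors to oxygen. They are the alpha subunits HIF1A, EPAS1 and HIF3A, the beta subunits ARNT and ARNT2, the prolyl hydroxylases EGLN1, EGLN2 and EGLN3, the asparaginyl hydroxylase HIF1AN and the ubiquitin ligase component VHL. They were chosen by gene name, and all 10 were found among the 58735 genes of the deposited tables. All 10 were also among the 19952 genes with enough counts to be tested, although HIF3A passed that filter only through libraries of the knockouts.

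The cells were HEK293T, an established human embryonic kidney line that carries the SV40 large T antigen. The groups were unedited cells (WT), MIR210-KO cells, labelled as knockouts of the miR-210 microRNA gene, and MIR210HG-KO cells, labelled as knockouts of its long non-coding host gene. Each genotype spent 24 h at 21% oxygen (normoxia) or at 1% oxygen (hypoxia), all in high-glucose DMEM with serum and antibiotics, and 4 libraries were sequenced per group, 24 in all. Whether a knockout was a clone or a pool, and whether the 4 libraries came from separate cultures, is not given in the sources used here, so p-values measure the spread between these libraries, which may be technical.

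As background, HIF is a pair of an alpha and a beta subunit that binds DNA and switches on genes of glycolysis, blood vessel growth and oxygen supply. With oxygen present, the EGLN enzymes hydroxylate prolines of the alpha subunit, VHL recognises the hydroxylated protein, and the proteasome destroys it; HIF1AN hydroxylates an asparagine that coactivators need unmodified. Because alpha subunits are governed mainly at the level of protein, the messenger RNA described here does not report HIF activity, whereas EGLN1 and EGLN3 are themselves textbook HIF target genes.

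In the deposited tables (GRCh38) the alpha subunit genes are HIF1A (ENSG00000100644) at chr14:61695513-61748259 on the plus strand, EPAS1 (ENSG00000116016) at chr2:46293667-46386703 on the plus strand and HIF3A (ENSG00000124440) at chr19:46297046-46343433 on the plus strand. The beta subunit genes are ARNT (ENSG00000143437) at chr1:150809705-150876768 on the minus strand and ARNT2 (ENSG00000172379) at chr15:80404350-80597937 on the plus strand. The prolyl hydroxylase genes are EGLN1 (ENSG00000135766) at chr1:231363751-231425044 on the minus strand, EGLN2 (ENSG00000269858) at chr19:40798996-40808433 on the plus strand and EGLN3 (ENSG00000129521) at chr14:33924231-34462774 on the minus strand. The remaining pair is HIF1AN (ENSG00000166135) at chr10:100529072-100559998 on the plus strand and VHL (ENSG00000134086) at chr3:10141008-10152220 on the plus strand. All are protein-coding, and each gene has 1 count per library, so isoforms were not told apart.

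Total counts per library ran from 25556776 to 37858947. The host gene, MIR210HG, had 0 counts in all 8 MIR210HG-KO libraries, against 125 to 178 in normoxia WT and 646 to 765 in hypoxia WT. In the MIR210-KO libraries MIR210HG was counted 52 to 118 times in normoxia and 646 to 780 times in hypoxia, and reads assigned to the MIR210 precursor summed to 33 over the hypoxia libraries, against 30 in WT. All 8 MIR210HG-KO libraries had 0 reads assigned to the MIR210 precursor. The 24 libraries do not measure mature microRNA, so whether MIR210HG-KO cells also lacked miR-210 was not measured. For the same reason the label MIR210-KO could not be checked from them, and every MIR210-KO direction given here rests on that label. All 8 markers of HEK293 cells were detected in every group, with summed levels from 333 to 1166 CPM (counts per 1e+06 on TMM-scaled library totals). The sums differed by genotype. In normoxia they were 523 to 550 CPM in WT, 856 to 950 in MIR210-KO and 333 to 350 in MIR210HG-KO. In hypoxia they were 860 to 1099, 1095 to 1166 and 417 to 434 CPM. Of 10 markers of blood, endothelium, fibroblasts, liver and pancreas, 2 to 4 were at 0 per group, and the summed level was 23.7 to 45.7 CPM. Most of that sum was the fibroblast markers COL1A1 and COL3A1, with group means of 15.1 to 33.0 and 1.67 to 15.9 CPM. Most of the HEK293 sum was VIM, NEFL and NEFM, while PAX2 and LHX1 had group means of 1.97 to 6.22 and 2.68 to 7.06 CPM. 4 libraries stood apart from their groups in an earlier look at these data, namely hypoxia WT 1 and 3, hypoxia MIR210-KO 1 and normoxia MIR210HG-KO 3. In hypoxia WT, though, libraries 1 and 3 were alike and so were 2 and 4. Their squared deviation per gene, relative to sampling noise, was 9.35 and 5.79. Across these pairs it was 29.2 to 55.8, so the counts do not show which pair is the deviant one. Calls that changed without the 4 libraries that stood apart are given beside each gene. Those libraries were picked from these same data, so leaving them out narrows the spread within groups and favours smaller p-values. Calls gained that way are a description and no independent support.

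Low oxygen changed 7, 9 and 5 of the 10 members in the 3 genotypes, against a background in which most genes tested also changed. Calls are at an adjusted p under 0.05 by edgeR's quasi-likelihood test with Benjamini-Hochberg adjustment over all genes tested. In WT, 5 members rose and 2 fell in hypoxia, where 29.6% of all genes tested rose and 30.7% fell. MIR210-KO cells had 5 members higher and 4 lower, beside 29.3% and 29.5% of all genes. MIR210HG-KO cells had 4 higher and 1 lower, beside 25.7% and 28.3%. The 2 oxygen levels were deposited in separate tables, so an effect of oxygen and one of the table cannot be told apart.

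Between genotypes the members also moved in both directions. In normoxia, MIR210-KO exceeded WT for 4 members and fell below it for 4, beside 22.6% of all genes higher and 21.6% lower. MIR210HG-KO in normoxia had 3 members above WT and 1 below, beside 15.6% and 19.6%. Set against MIR210-KO in normoxia, MIR210HG-KO had 6 higher and 2 lower, beside 23.4% and 25.8%. The hypoxia comparison of MIR210-KO with WT gave 3 members higher and 2 lower, beside 28.2% and 27.7%. The hypoxia counts for MIR210HG-KO against WT were 7 higher and 2 lower, beside 24.4% and 30.2%, and for MIR210HG-KO against MIR210-KO 5 higher and 2 lower, beside 26% and 29%. Both knockouts were compared with the same 4 WT libraries per oxygen level, so these comparisons are not independent. HIF3A is among the members counted as higher in all 4 comparisons with WT, and its way into the test built that difference in. Without HIF3A the members above WT numbered 3 and 2 in normoxia and 2 and 6 in hypoxia, for MIR210-KO and MIR210HG-KO. Without the 4 libraries that stood apart, 8 members in place of 4 were called for MIR210HG-KO against WT in normoxia, and for the other 8 comparisons between 2 groups the number moved by at most 1.

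The response to oxygen itself was then compared between genotypes by interaction. It differed from WT in MIR210-KO for 3 members with a positive and 1 with a negative difference, beside 12.5% and 14% of all genes. In MIR210HG-KO 2 members had a positive difference from WT and 0 a negative one, beside 10.2% and 12.2%. Between the knockouts, 1 difference was positive and 1 negative, beside 2.03% and 1.51%. Left-out libraries moved the MIR210HG-KO minus WT count between 1 and 3, and without the 4 libraries that stood apart the difference between the knockouts was called for 5 members in place of 2.

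**Figure D1:**
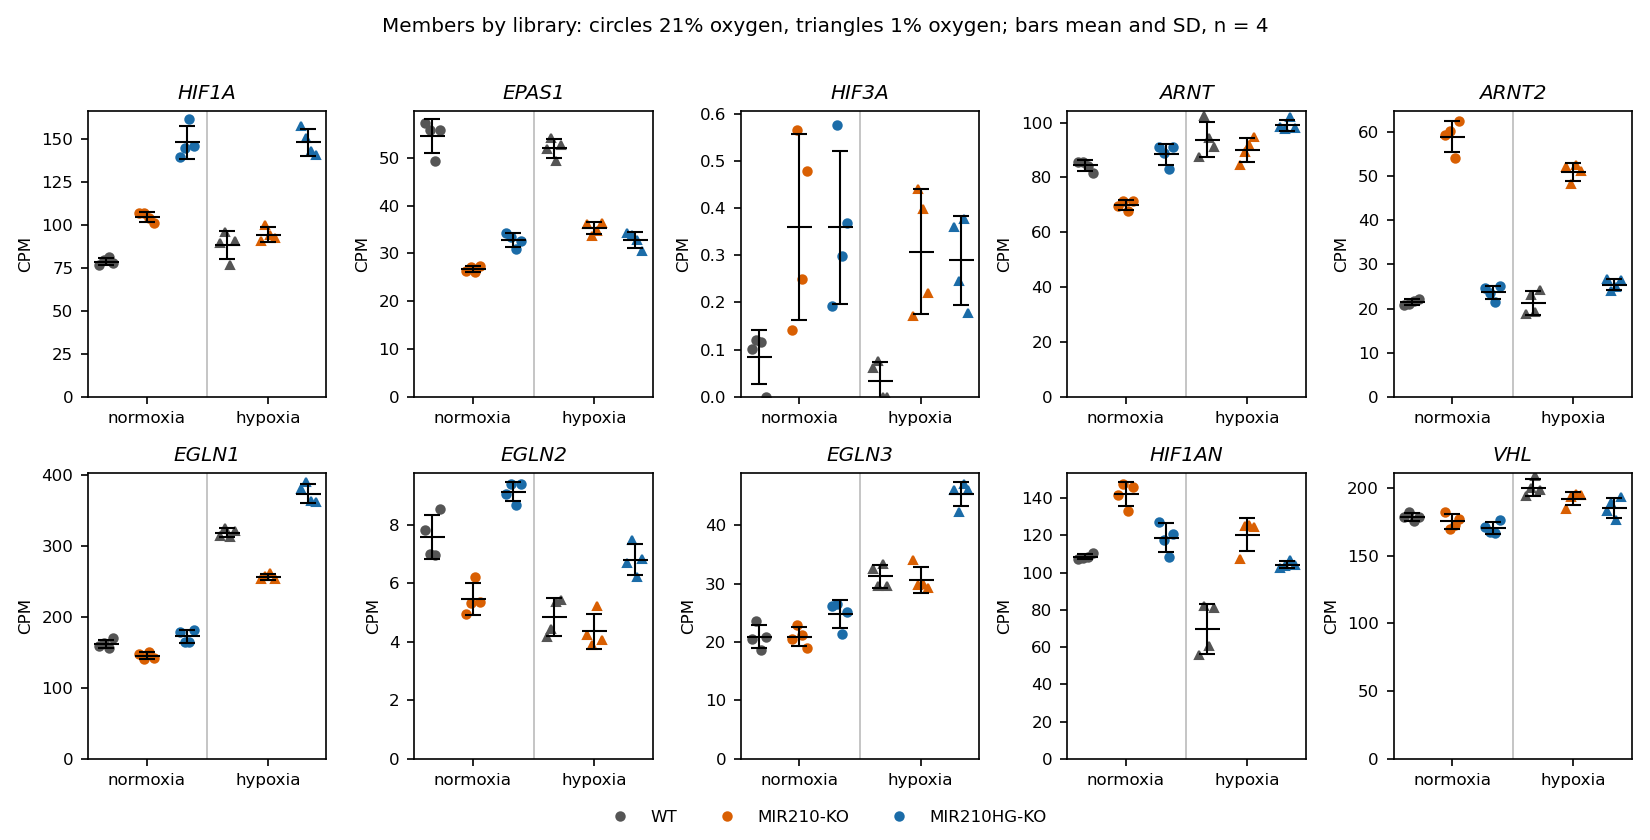
Level in CPM (vertical axis, from 0) of each of the 10 members in every library, with normoxia at the left (circles) and hypoxia at the right (triangles) of each panel, coloured by genotype. Horizontal bars are the mean and vertical bars the SD of 4 libraries. EGLN1 is higher in all 12 hypoxia libraries than in all 12 normoxia libraries, whereas ARNT2 separates the 8 MIR210-KO libraries from the other 16.

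HIF1A, the alpha subunit present in nearly all cells, was highest in MIR210HG-KO at both oxygen levels. In normoxia the 4 WT libraries stood at 76.5, 79.2, 81.1 and 77.5 CPM, the MIR210-KO libraries at 107, 107, 104 and 101 CPM, and the MIR210HG-KO libraries at 139, 145, 162 and 146 CPM. The 3 groups did not overlap, and their order was WT, MIR210-KO, MIR210HG-KO. MIR210-KO was higher than WT by 0.41 ± 0.06 (log2 change ± SE; adjusted p = 1.03e-06) and MIR210HG-KO by 0.91 ± 0.06 (adjusted p = 1.10e-13, edgeR quasi-likelihood test, as for every adjusted p that follows). In hypoxia WT gave 89.4, 95.6, 76.4 and 90.4 CPM, MIR210-KO 90.2, 100.1, 94.0 and 92.1 CPM, and MIR210HG-KO 157, 150, 143 and 141 CPM. Here MIR210-KO overlapped WT, at 0.10 ± 0.06 (adjusted p = 0.168; 95% interval -0.03 to 0.22), while MIR210HG-KO again lay above both, by 0.75 ± 0.06 over WT and 0.65 ± 0.06 over MIR210-KO.

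Low oxygen moved HIF1A little, and not in the same direction in each genotype. In WT it rose by 0.16 ± 0.06 (adjusted p = 0.0192), with library 3 of hypoxia WT below all normoxia WT libraries. In MIR210-KO it fell by 0.15 ± 0.06 (adjusted p = 0.0309), and in MIR210HG-KO the 95% interval was -0.12 to 0.12. The response in MIR210-KO was below that in WT by 0.31 on the log2 scale (-0.31 ± 0.08, adjusted p = 0.00547). The WT call was lost without hypoxia WT 2 (0.12, adjusted p = 0.095). The MIR210-KO call was lost when any of 5 MIR210-KO libraries was left out (highest adjusted p = 0.0624), with no low-count filter or a stricter one (adjusted p = 0.138 and 0.0752) and with upper quartile scaling (-0.0076, adjusted p = 0.925). Leaving out the 4 libraries that stood apart, hypoxia WT 3 among them, gave both calls smaller adjusted p-values, at 0.24 in WT (adjusted p = 5.39e-05) and -0.14 in MIR210-KO (adjusted p = 0.00837). The difference between the MIR210-KO and WT responses kept its call under every alternative run. The response in MIR210HG-KO differed from that in WT by -0.16 ± 0.08 (adjusted p = 0.166), which was called without the 4 libraries (-0.20, adjusted p = 0.0257).

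EPAS1, which encodes the alpha subunit of HIF2 and is prominent in endothelium and kidney, was lower in both knockouts. In normoxia WT stood at 57.3, 55.8, 49.3 and 55.8 CPM, MIR210-KO at 26.4, 27.1, 26.1 and 27.3 CPM, and MIR210HG-KO at 34.2, 33.4, 30.9 and 32.5 CPM. All 8 knockout libraries lay below all WT libraries, and MIR210-KO below MIR210HG-KO. The log2 changes against WT were -1.03 ± 0.06 (adjusted p = 1.06e-15) in MIR210-KO, a fold of 0.49, and -0.74 ± 0.06 (adjusted p = 5.40e-12) in MIR210HG-KO. In hypoxia WT gave 51.9, 54.1, 49.4 and 52.7 CPM, MIR210-KO 36.2, 33.7, 34.8 and 36.3 CPM, and MIR210HG-KO 34.2, 33.8, 32.8 and 30.5 CPM. The knockouts were again below WT, by -0.56 ± 0.06 and -0.66 ± 0.06, but overlapped each other (-0.10 ± 0.06, adjusted p = 0.136).

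The oxygen response of EPAS1 differed between the genotypes. In MIR210-KO EPAS1 rose by 0.40 ± 0.06 in hypoxia (adjusted p = 6.40e-07). The change was -0.07 ± 0.06 in WT (adjusted p = 0.293), and in MIR210HG-KO its 95% interval was -0.12 to 0.13, although with upper quartile scaling it was called there at 0.14 (adjusted p = 0.0387). The response in MIR210-KO exceeded that in WT by 0.47 ± 0.08 (adjusted p = 4.56e-05), and that in MIR210HG-KO fell short of it by 0.40 on the same scale (-0.40 ± 0.08, adjusted p = 0.0043).

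HIF3A encodes an alpha subunit of which short isoforms can hinder the other alpha subunits. It was at the edge of detection. Raw counts were 3, 3, 3 and 0 in normoxia WT, 4, 14, 6 and 12 in MIR210-KO, and 5, 15, 8 and 9 in MIR210HG-KO. In hypoxia they were 2, 3, 0 and 0 in WT, 6, 17, 12 and 7 in MIR210-KO, and 13, 7, 14 and 5 in MIR210HG-KO. Every knockout library had more counts than every WT library at the same oxygen level, with sums of 36 and 37 against 9 in normoxia and 42 and 39 against 5 in hypoxia. The exact permutation test on CPM gave a two-sided p of 0.0286 for each of these 4 comparisons, the smallest that 4 against 4 libraries can give, or 0.0643 adjusted over 9 comparisons. The edgeR fit put the differences at 2.03 ± 0.64 and 2.04 ± 0.64 in normoxia and 3.04 ± 0.69 and 2.97 ± 0.69 in hypoxia, on a log2 scale that at these counts depends on the prior count. Since the gene entered that fit through its knockout libraries, a difference was built into its selection. The log2 differences and the permutation p-values are therefore a description and no support for a difference. No oxygen change was called, with 95% intervals of -3.06 to 0.65 in WT, -1.26 to 0.85 in MIR210-KO and -1.34 to 0.78 in MIR210HG-KO.

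HIF3A is also the single member whose 3' UTR held a match to the miR-210-3p seed, and the 2 sequences are shown so that the match can be read. The mature microRNA (RefSeq, GRCh38.p14, chr11:568112-568133, minus strand) has its seed, bases 2 to 8, in capitals, and the stretch of the HIF3A 3' UTR (GENCODE release 29, around base 72 of 3811) has the complementary 7 bases in capitals.
hsa-miR-210-3p: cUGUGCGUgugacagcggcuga
HIF3A 3' UTR: gccggcagccaACGCACAggatgggggcg
The match lies in 3 of the 5 HIF3A coding transcripts that have a 3' UTR. None of the other 9 members has a match of 7 or 8 bases in its longest 3' UTR, and 3.87% of 19132 genes do. A match is a description of letters, and binding was not measured.

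ARNT, the beta subunit that partners alpha subunits in most tissues, rose in hypoxia in all 3 genotypes. WT went from 85.6, 85.7, 84.2 and 81.7 CPM to 87.3, 102, 94.2 and 90.9 CPM. MIR210-KO went from 69.5, 71.4, 67.6 and 71.4 CPM to 84.5, 89.2, 91.9 and 94.8 CPM, and MIR210HG-KO from 91.2, 88.9, 82.9 and 90.9 CPM to 98.4, 97.7, 102 and 97.8 CPM. Within each genotype all hypoxia libraries lay above all normoxia libraries. The rises were 0.15 ± 0.05 (adjusted p = 0.0121), 0.36 ± 0.05 (adjusted p = 4.94e-07) and 0.16 ± 0.05 (adjusted p = 0.00917). The WT rise lost its call without hypoxia WT 2 (0.11, adjusted p = 0.0814). MIR210-KO started lower than WT in normoxia, by -0.27 ± 0.05 (adjusted p = 8.53e-05), and no difference was called in hypoxia (-0.06 ± 0.05, adjusted p = 0.362; 95% interval -0.17 to 0.05). Its response exceeded that of WT by 0.21 ± 0.07 (adjusted p = 0.0312), a call lost on leaving out any of 9 libraries (highest adjusted p = 0.0886). MIR210HG-KO was not called different from WT in normoxia (0.07 ± 0.05, adjusted p = 0.329; 95% interval -0.04 to 0.18) or in hypoxia (0.08 ± 0.05, adjusted p = 0.201; 95% interval -0.03 to 0.19). The rise in MIR210HG-KO was below that in MIR210-KO by -0.20 ± 0.07 (adjusted p = 0.134), which was called without the 4 libraries that stood apart (-0.26, adjusted p = 0.00461).

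ARNT2, a beta subunit best known from neurons and the developing hypothalamus and kidney, marked the MIR210-KO cells. In normoxia WT stood at 20.7, 21.0, 21.7 and 22.2 CPM, MIR210HG-KO at 24.6, 23.5, 21.5 and 25.03 CPM, and MIR210-KO at 59.5, 60.2, 54.1 and 62.4 CPM. The hypoxia libraries gave 18.9, 23.0, 19.2 and 24.2 CPM in WT, 26.6, 23.9, 24.8 and 26.4 CPM in MIR210HG-KO, and 52.1, 48.2, 52.6 and 51.3 CPM in MIR210-KO. At both oxygen levels every MIR210-KO library was higher than every library of the other 2 genotypes. The increase over WT was 1.47 ± 0.07 (2.76-fold, adjusted p = 4.37e-17) in normoxia and 1.26 ± 0.07 (2.39-fold, adjusted p = 4.52e-16) in hypoxia. In MIR210-KO ARNT2 fell in hypoxia by 0.21 on the log2 scale (-0.21 ± 0.07, adjusted p = 0.00865), although with upper quartile scaling the change was -0.069 (adjusted p = 0.402).

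Whether ARNT2 was called different between MIR210HG-KO and WT depended on which libraries were kept, at both oxygen levels. In hypoxia the difference was 0.25 ± 0.07 (adjusted p = 0.00345), with overlapping libraries. WT 1 and 3, which were among the libraries that stood apart, were the 2 lowest of their group, and without the 4 libraries that stood apart the difference was 0.11 (adjusted p = 0.176). In normoxia it was 0.15 ± 0.07 (adjusted p = 0.131), and it was called without those 4 libraries (0.19, adjusted p = 0.0144), without normoxia MIR210HG-KO 3 alone (0.19, adjusted p = 0.049) and in the fit to the normoxia libraries (0.16, adjusted p = 0.0483). The response of ARNT2 to oxygen differed from WT in MIR210-KO by -0.21 ± 0.10 (adjusted p = 0.1245), and between the knockouts by 0.32 ± 0.10 (adjusted p = 0.0735). Both were called without the 4 libraries, at -0.37 (adjusted p = 0.000894) and 0.29 (adjusted p = 0.0166).

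**Figure D2:**
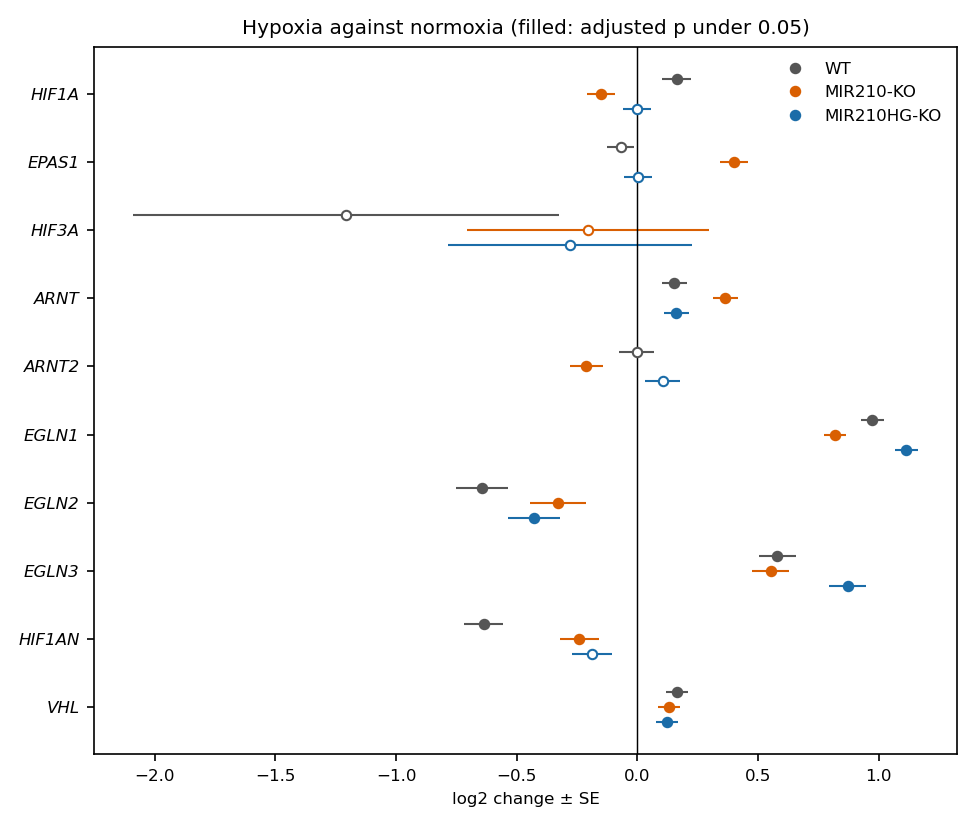
Log2 change of each member from normoxia to hypoxia (horizontal axis) with its SE, by genotype. Filled points passed an adjusted p of 0.05. EGLN1 and EGLN3 lie to the right of 0 and EGLN2 to the left in all 3 genotypes; the alpha subunits HIF1A and EPAS1 are spread around 0.

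The counts of the prolyl hydroxylases responded to oxygen in opposite directions, with a limit on those of EGLN2 given below. EGLN1, the main HIF prolyl hydroxylase in normoxia, rose in hypoxia in all 3 genotypes. In WT it went from 159, 163, 157 and 169.5 CPM to 313, 325, 312 and 321 CPM. MIR210-KO went from 148, 140.1, 151 and 142 CPM to 253, 257, 261 and 253 CPM, and MIR210HG-KO from 179, 165, 164 and 181 CPM to 379, 389, 363 and 361 CPM. The lowest hypoxia library, at 253 CPM, was above the highest normoxia library, at 181 CPM. The rises were 0.97 ± 0.05 (1.96-fold, adjusted p = 1.64e-17), 0.82 ± 0.05 (1.76-fold, adjusted p = 2.43e-15) and 1.12 ± 0.05 (2.17-fold, adjusted p = 1.30e-18).

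Genotypes differed in how much EGLN1 rose. The rise in MIR210HG-KO exceeded that in MIR210-KO by 0.30 ± 0.07 (adjusted p = 0.00852; adjusted p = 0.0887 without a low-count filter). Neither knockout's rise was called different from that of WT, at -0.15 ± 0.07 (adjusted p = 0.0841; 95% interval -0.29 to -0.02) and 0.14 ± 0.07 (adjusted p = 0.122; 95% interval 0.0033 to 0.28), but DESeq2 called both (adjusted p = 0.00877 and 0.0438), and without the 4 libraries that stood apart edgeR called the first (-0.17, adjusted p = 0.029). In hypoxia the 3 groups did not overlap: MIR210-KO was below WT by -0.31 ± 0.05 (adjusted p = 8.73e-07) and MIR210HG-KO above it by 0.23 ± 0.05 (adjusted p = 8.85e-05). In normoxia MIR210-KO was also lower than WT (-0.16 ± 0.05, adjusted p = 0.00653), and MIR210HG-KO differed from WT by 0.09 ± 0.05 (adjusted p = 0.148), which was called without the 4 libraries (0.11, adjusted p = 0.0311).

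EGLN3, the prolyl hydroxylase known for the steepest induction by HIF, had smaller log2 rises than EGLN1 here. WT went from 20.5, 23.6, 18.7 and 20.9 CPM to 32.5, 29.5, 33.3 and 29.7 CPM, and MIR210-KO from 20.6, 22.9, 21.2 and 19.1 CPM to 34.0, 29.7, 29.9 and 29.2 CPM. MIR210HG-KO went from 26.2, 26.6, 21.3 and 25.1 CPM to 46.0, 42.3, 47.1 and 46.0 CPM. Within each genotype the oxygen levels did not overlap, and in hypoxia all MIR210HG-KO libraries stood above all others. The rises were 0.58 ± 0.08 in WT, 0.55 ± 0.08 in MIR210-KO and 0.87 ± 0.08 in MIR210HG-KO (adjusted p = 8.60e-08, 2.98e-07 and 2.92e-11). MIR210HG-KO exceeded WT by 0.54 ± 0.07 in hypoxia (adjusted p = 2.27e-07) and by 0.25 ± 0.08 in normoxia (adjusted p = 0.014), where libraries overlapped and the call was lost without normoxia WT 3 (0.21, adjusted p = 0.0622). Its oxygen response exceeded that of WT by 0.29 ± 0.11 (adjusted p = 0.0479), and that call was lost in 19 of 24 fits that left out a library (0.23 to 0.34, highest adjusted p = 0.153). Between the knockouts the responses differed by 0.32 ± 0.11 (adjusted p = 0.0987), which was called without the 4 libraries that stood apart (0.31, adjusted p = 0.0221). No difference between MIR210-KO and WT was called at either oxygen level, with 95% intervals of -0.16 to 0.17 in normoxia and -0.18 to 0.13 in hypoxia.

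EGLN2, a prolyl hydroxylase not counted among the hypoxia-induced ones, fell in hypoxia in all 3 genotypes. WT went from 7.82, 6.98, 6.96 and 8.53 CPM to 4.17, 4.43, 5.37 and 5.41 CPM. MIR210-KO went from 4.95, 5.33, 6.22 and 5.35 CPM to 4.24, 3.89, 5.22 and 4.06 CPM, and MIR210HG-KO from 9.06, 9.41, 8.69 and 9.38 CPM to 6.69, 7.48, 6.20 and 6.83 CPM. The oxygen levels were separate in WT and MIR210HG-KO and overlapped in MIR210-KO. The falls were -0.64 ± 0.11 (adjusted p = 6.72e-06), -0.33 ± 0.12 (adjusted p = 0.0152) and -0.43 ± 0.11 (adjusted p = 0.00105). In MIR210-KO the call was lost without normoxia MIR210-KO 3 or without hypoxia MIR210-KO 2 (highest adjusted p = 0.0673) and with upper quartile scaling (-0.19, adjusted p = 0.162). MIR210-KO was below WT in normoxia (-0.47 ± 0.11, adjusted p = 0.000788), and MIR210HG-KO was above WT in hypoxia (0.48 ± 0.11, adjusted p = 0.000358). MIR210HG-KO against WT in normoxia was 0.27 ± 0.11 (adjusted p = 0.0503) with no overlap, and it was called in 16 of 24 fits that left out a library and without the 4 libraries that stood apart (0.29, adjusted p = 0.0312). In both conditions MIR210HG-KO exceeded MIR210-KO, by 0.74 ± 0.11 and 0.65 ± 0.11, with no overlap.

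The EGLN2 values carry a limit of the annotation. Of the 6577 exonic bases of EGLN2, 30.6% are also exons of other genes on the same strand, chiefly the readthrough gene RAB4B-EGLN2, and for its 7 coding transcripts with a stop codon the share is 66.1% to 100%. RAB4B-EGLN2 itself had 0 to 2 counts per library. How reads in shared exons were counted is not given in the sources used here. The EGLN2 level, its changes and its comparison with other genes are therefore uncertain. If shared reads were left out, EGLN2 was counted only on its 4565 unshared exonic bases. Where along the gene its reads lay was not measured.

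The sequences before the starts of the 3 EGLN genes are printed because the 3 genes differ at the HIF motif. HIF binds a short core, ACGTG or GCGTG, which was searched on both strands in the promoters of the RefSeq table (GRCh38.p14), 250 bases before to 50 after each start. Of the 10 members, 8 had an entry; VHL and ARNT2 had none. Printed are the 250 bases before the start, 5' to 3' on the gene's strand, with core matches in capitals: EGLN1 at chr1:231422288-231422537 (minus strand), EGLN2 at chr19:40798941-40799190 (plus strand) and EGLN3 at chr14:33951075-33951324 (minus strand).
EGLN1: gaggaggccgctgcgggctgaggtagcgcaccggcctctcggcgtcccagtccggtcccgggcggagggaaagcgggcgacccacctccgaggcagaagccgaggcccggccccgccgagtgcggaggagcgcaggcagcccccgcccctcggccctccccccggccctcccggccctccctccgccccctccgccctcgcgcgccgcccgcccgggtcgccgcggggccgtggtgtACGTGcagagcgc
EGLN2: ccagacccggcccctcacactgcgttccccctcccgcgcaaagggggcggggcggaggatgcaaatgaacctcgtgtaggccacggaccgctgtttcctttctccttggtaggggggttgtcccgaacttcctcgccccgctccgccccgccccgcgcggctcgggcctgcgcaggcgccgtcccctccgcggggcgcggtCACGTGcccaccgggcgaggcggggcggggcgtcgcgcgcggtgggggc
EGLN3: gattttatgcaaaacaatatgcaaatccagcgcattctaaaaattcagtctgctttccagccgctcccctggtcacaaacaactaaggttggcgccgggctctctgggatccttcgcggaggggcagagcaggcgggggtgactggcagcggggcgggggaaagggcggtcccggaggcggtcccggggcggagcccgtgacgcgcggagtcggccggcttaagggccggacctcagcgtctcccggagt
EGLN1, which rose, has 1 match, with its first base 13 bases before the start. EGLN2, which fell, has the palindrome CACGTG, which holds ACGTG on both strands, 49 bases before the start. EGLN3, which rose, has no match in this window. GCGTG occurs once in the first promoters of HIF1A (204 bases before the start) and EPAS1 (117 bases) and 3 times in that of HIF3A, and neither core occurs in those of ARNT and HIF1AN. Of all 35116 promoters in the table, 21.4% hold ACGTG, 36.5% GCGTG and 48.4% either. Binding was not measured here, and these starts are RefSeq's, which need not be the ends of the deposited gene spans.

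Per deposited length, EGLN1 made up most of the prolyl hydroxylase messenger RNA in every library. On the RPKM scale (CPM divided by the deposited gene length in kilobases), EGLN1 held 84.8% ± 0.70 (SD, n = 4) of the summed EGLN level in normoxia WT and 89.8% ± 0.69 in hypoxia WT. EGLN3 went from 10.8% to 8.72% and EGLN2 from 4.38% to 1.51%. The EGLN2 share is uncertain because of its shared exons. Its deposited length, 6577 bases, also exceeds that of its longest coding transcript, 2821 bases, which lowers its RPKM. The deposited length of every other member likewise counts all its exonic bases, 7265 for EGLN1 and 7359 for EGLN3. Their RPKM may thus be lowered too, and to unequal degrees. Transcript lengths of the other members were not compared, so all shares and rankings per length depend on the deposited lengths. Summed over the 3 genes, the level went from 26.3 ± 1.00 to 48.8 ± 0.62 RPKM in WT, from 23.7 ± 0.76 to 40.1 ± 0.56 RPKM in MIR210-KO and from 28.5 ± 1.43 to 58.6 ± 1.69 RPKM in MIR210HG-KO. These shares are descriptions with no test.

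The same scale shows which alpha and beta subunit prevailed per deposited length. HIF1A held 67.1% ± 1.99 of the summed alpha subunit level in normoxia WT and EPAS1 32.9% ± 2.00. In MIR210-KO the shares were 84.6% ± 0.59 and 15.3% ± 0.52, and in MIR210HG-KO 86.3% ± 1.22 and 13.6% ± 1.22. Hypoxia brought EPAS1 to 20.9% ± 1.31 in MIR210-KO and left it at 29.5% ± 1.23 in WT and 13.5% ± 0.33 in MIR210HG-KO. HIF3A stayed under 0.2% in every group mean. Of the summed beta subunit level, ARNT2 held 17.6% ± 0.77 in normoxia WT, 18.4% ± 0.38 in MIR210HG-KO and 41.5% ± 0.92 in MIR210-KO; in hypoxia these were 16.1% ± 1.58, 17.8% ± 0.87 and 32.3% ± 1.37.

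**Figure D3:**
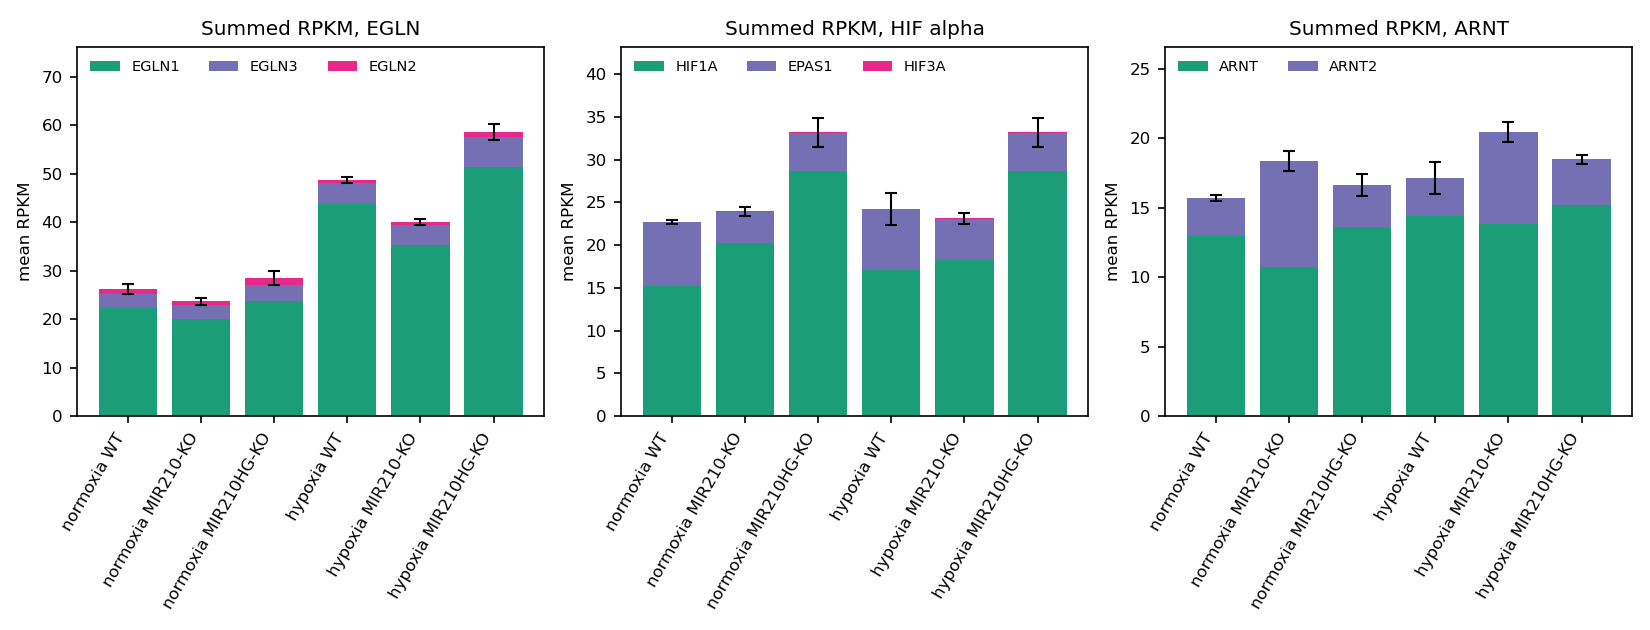
Mean RPKM (vertical axis, from 0) of the prolyl hydroxylases, the alpha subunits and the beta subunits, stacked by gene for each of the 6 groups. Error bars are the SD of the summed level over 4 libraries. The EGLN sum is highest in hypoxia MIR210HG-KO, at 58.6 RPKM; the alpha subunit sum is highest in both MIR210HG-KO groups, at 33.2 RPKM, and ARNT2 takes its largest share in normoxia MIR210-KO.

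HIF1AN, the asparaginyl hydroxylase also called FIH, fell in hypoxia in WT and was higher in the knockouts than in hypoxia WT. WT went from 107, 108, 109 and 110.3 CPM to 55.9, 81.8, 60.5 and 80.8 CPM. MIR210-KO went from 142, 148, 133 and 146 CPM to 107, 125, 125 and 124 CPM, and MIR210HG-KO from 127, 118, 109 and 121 CPM to 103, 103, 107 and 104 CPM. Hypoxia WT 1 and 3, which stood apart, were the lowest of the 24 libraries, and WT 2 and 4 were still below all others. The changes with low oxygen were -0.64 ± 0.08 in WT (adjusted p = 5.40e-08), -0.24 ± 0.08 in MIR210-KO (adjusted p = 0.0118) and -0.19 ± 0.08 in MIR210HG-KO (adjusted p = 0.0519).

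Leaving out the 4 libraries that stood apart shrank the WT fall to -0.42 (adjusted p = 2.05e-10), with -0.19 in MIR210-KO and -0.23 in MIR210HG-KO (adjusted p = 8.11e-05 and 6.06e-06). The hypoxia WT libraries so left out were the low pair for HIF1AN, and leaving out the other pair instead was not tried. The smaller fall is thus no better estimate than the first. In MIR210-KO the change lost its call with upper quartile scaling (-0.098, adjusted p = 0.317). The response was weaker than in WT by 0.40 ± 0.12 in MIR210-KO (adjusted p = 0.00968) and by 0.45 ± 0.12 in MIR210HG-KO (adjusted p = 0.00469), and without the 4 libraries by 0.23 (adjusted p = 0.00463) and 0.19 (adjusted p = 0.0241). In hypoxia MIR210-KO exceeded WT by 0.79 ± 0.08 and MIR210HG-KO by 0.58 ± 0.08 (adjusted p = 9.12e-10 and 4.58e-07), or by 0.62 and 0.36 without those libraries. In normoxia MIR210-KO was higher than WT by 0.39 ± 0.08 (adjusted p = 0.0002), and MIR210HG-KO differed by 0.13 ± 0.08 (adjusted p = 0.242), which was called without the 4 libraries (0.17, adjusted p = 0.00119). NDUFB8, on the opposite strand, shares 2.33% of the exonic bases of HIF1AN.

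VHL, which recognises hydroxylated alpha subunits, was per deposited length the most abundant of the 10 over the 24 libraries. Its mean was 43.6 RPKM, against 32.7 for EGLN1 and 21.4 for HIF1A. In hypoxia MIR210HG-KO the order turned, with EGLN1 at 49.7 to 53.6 RPKM above VHL at 41.8 to 45.9 RPKM. WT went from 178, 182, 175 and 178 CPM to 194, 200.3, 209 and 199 CPM in hypoxia. MIR210-KO went from 182, 169, 173 and 177 CPM to 185, 193, 195 and 194 CPM, and MIR210HG-KO from 171, 168, 166 and 176 CPM to 183, 189, 176.1 and 193.5 CPM. The oxygen levels did not overlap within a genotype. The rises were 0.17 ± 0.045 (adjusted p = 0.00193), 0.13 ± 0.045 (adjusted p = 0.013) and 0.12 ± 0.045 (adjusted p = 0.0222). In MIR210-KO the call was lost without normoxia MIR210-KO 2 (highest adjusted p = 0.0607), and in MIR210HG-KO without normoxia library 2, hypoxia library 2 or hypoxia library 4 (highest adjusted p = 0.109). MIR210HG-KO was below WT in hypoxia by -0.11 ± 0.045 (adjusted p = 0.0338), a call lost in 18 of 24 fits that left out a library. The other genotype differences of VHL had 95% intervals between -0.16 and 0.07.

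**Figure D4:**
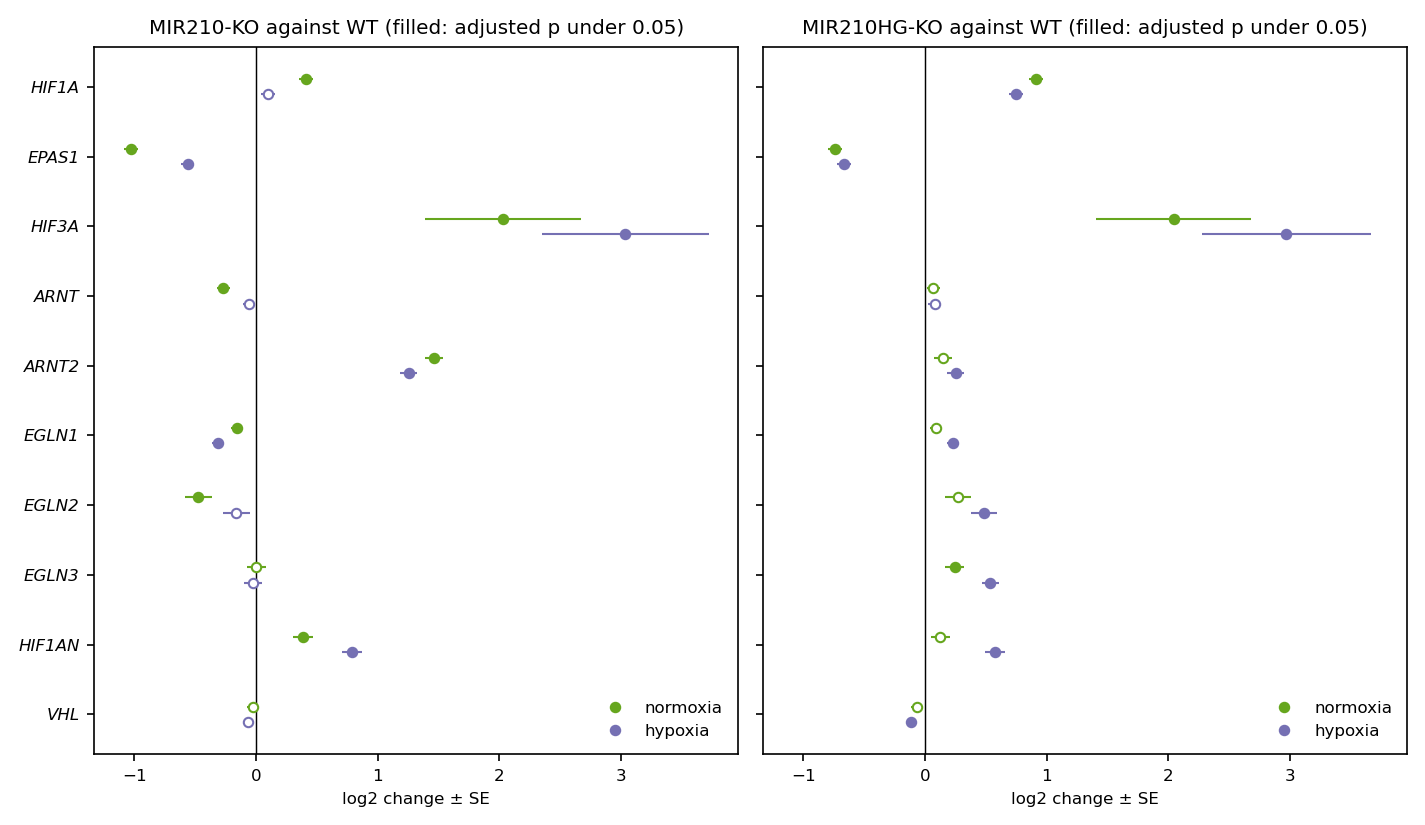
Log2 difference of each knockout from WT (horizontal axis) with its SE, in normoxia and in hypoxia, for each member. Filled points passed an adjusted p of 0.05; those of HIF3A, which entered the fit through its knockout libraries, are a description with no test. EPAS1 is below 0 and HIF3A above 0 in all 4 comparisons; ARNT2 exceeds 1 only at MIR210-KO, and HIF1A is highest at MIR210HG-KO.

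The genes around the members were measured beside them, since a difference of a gene and a difference of its chromosome segment cannot be told apart from a gene alone. Around HIF1A on chromosome 14, the 76 tested genes within 5 Mb had a median log2 difference of 0.35 in MIR210HG-KO against WT in normoxia, with 42 called higher and 2 lower, beside 0.91 for HIF1A. In hypoxia the median was 0.45 (44 higher, 4 lower), beside 0.75. Around EGLN3, on the same chromosome, the 60 neighbours had medians of 0.44 in normoxia and 0.33 in hypoxia, beside 0.25 and 0.54 for EGLN3. In MIR210-KO these medians were between -0.09 and 0.11.

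HIF1AN on chromosome 10 had shifted neighbours in the other knockout. Its 132 neighbours had a median of 0.38 in MIR210-KO against WT in normoxia (87 higher, 5 lower), beside 0.39 for HIF1AN, and of 0.36 in hypoxia, beside 0.79. In MIR210HG-KO the neighbours were at -0.11 and -0.08. The 49 neighbours of EPAS1 had medians between -0.07 and 0.02 in the 4 comparisons with WT, and the 141 of ARNT2 between -0.10 and -0.04. The part of the neighbours in the members' differences was not tested.

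**Figure D5:**
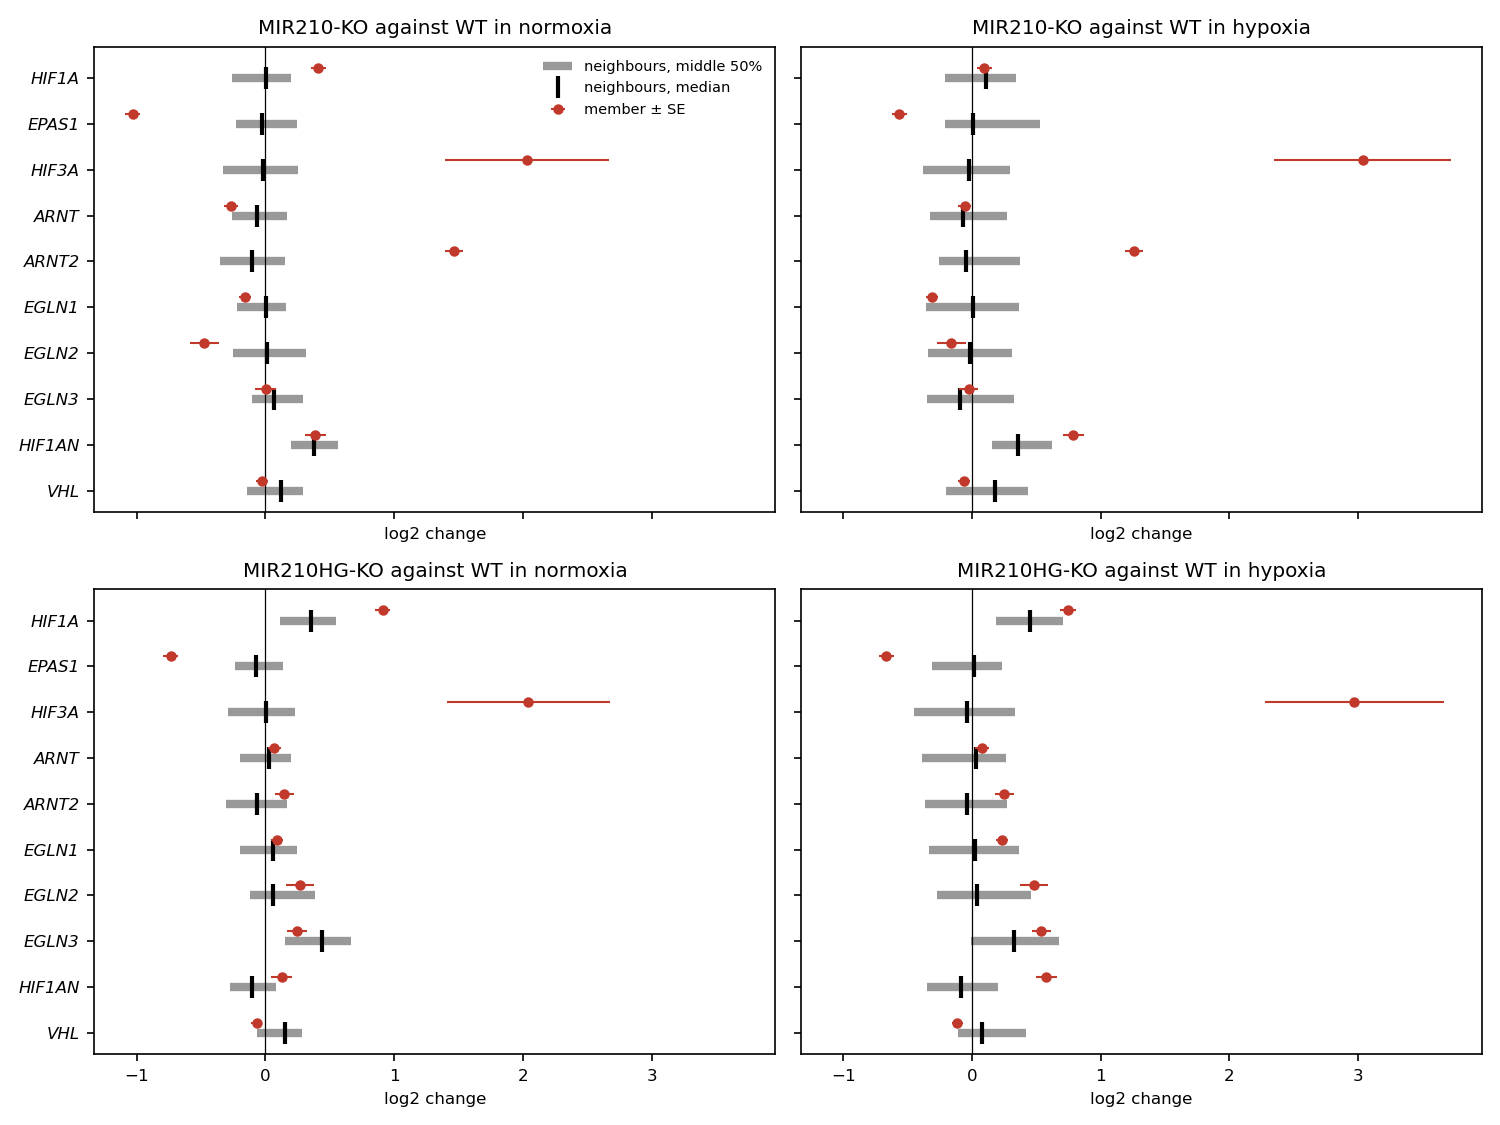
Log2 difference from WT of each member (red point with SE) and of the tested genes within 5 Mb on either side (black tick, median; grey bar, middle 50%), for both knockouts and oxygen levels. The neighbours of HIF1A and EGLN3 are shifted in MIR210HG-KO and those of HIF1AN in MIR210-KO, while the neighbours of EPAS1 and HIF3A sit near 0 in all 4 comparisons.

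The antisense gene HIF1A-AS2 overlaps the span of HIF1A without sharing its exons, and had 0 to 94 counts per library. It rose in hypoxia by 2.59 ± 0.46 in WT, 3.30 ± 0.48 in MIR210-KO and 4.23 ± 0.48 in MIR210HG-KO (adjusted p = 1.22e-05, 5.58e-07 and 6.75e-09), to means of 1.14, 1.49 and 2.26 CPM. HIF1A itself had means of 88.0, 94.1 and 148 CPM in those groups. HIF1A-AS2 passed the count filter through its hypoxia libraries, with normoxia means of 0.19 CPM in WT, 0.15 in MIR210-KO and 0.12 in MIR210HG-KO. A difference with oxygen was thus built into its selection. Its log2 changes and adjusted p-values are therefore a description and no support for a rise. SPTSSA lies within the annotated span of EGLN3 on the same strand and shares no exon with it.

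Genes whose level followed a member most closely over the 24 libraries were listed by Pearson's r of log2 CPM among 14527 protein-coding genes. The libraries share groups and depth, so r is given as a description only. EGLN1 was followed by PLOD2 (r = 0.990), a collagen lysyl hydroxylase, PFKFB4 (r = 0.984), a regulator of glycolysis, and BNIP3L (r = 0.981), a mitophagy receptor. EGLN3 was followed by AHRR (r = 0.949), the repressor of the aryl hydrocarbon receptor, and ZNF189 (r = 0.937). Highest for ARNT2 were CACUL1, ZNF462 and TRIM58 (r = 0.980 to 0.982), for EPAS1 TSPYL4, OSBPL1A and CDH2 (r = 0.954 to 0.963), and for HIF1A FAM71F2, IFNAR1 and RCOR1 (r = 0.948 to 0.961). HIF1AN had AMOT, DLG5 and PRR14L (r = 0.952 to 0.972), ARNT had CBLB, NCAM1 and SRGAP2 (r = 0.932 to 0.945), and EGLN2 had TEF, POMT2 and CDAN1 (r = 0.937 to 0.951). For VHL these were SERTAD2, the glucose transporter gene SLC2A3 and YPEL2 (r = 0.904 to 0.918), and for HIF3A ANGPTL2, FKBP11 and COLQ (r = 0.800 to 0.851).

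Most HIF target genes on a list of 38, of which 36 could be tested, rose in hypoxia in every genotype. In WT 32 rose and 1 fell, beside 29.6% and 30.7% of all genes tested, with a median log2 change of 1.60, led by ANKRD37 (3.23 ± 0.13) and SLC2A3 (2.98 ± 0.11). In MIR210-KO 31 rose and 2 fell, beside 29.3% and 29.5%, with a median of 1.03, led by DDIT4 (2.46 ± 0.10), an inhibitor of mTOR signalling, and the transcription factor BHLHE40 (2.40 ± 0.07). In MIR210HG-KO 31 rose and 2 fell, beside 25.7% and 28.3%, with a median of 1.38, led by LOX (2.97 ± 0.08), a lysyl oxidase, and BHLHE40 (2.96 ± 0.07). The median of all genes tested was between 0.0020 and 0.035 in these comparisons. Set beside these medians, EGLN1 rose by less, at 0.97, 0.82 and 1.12.

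Against WT the same targets were more often called lower than higher in the knockouts. In normoxia 18 were lower and 8 higher in MIR210-KO, beside 21.6% and 22.6% of all genes tested, with ENO2 (1.39 ± 0.06), a glycolytic enolase, and DDIT4 (-1.16 ± 0.09) the largest. MIR210HG-KO had 25 lower and 2 higher, beside 19.6% and 15.6%, led by DDIT4 (-1.65 ± 0.10) and SLC2A3 (-1.61 ± 0.13). In hypoxia 25 were lower and 4 higher in MIR210-KO, beside 27.7% and 28.2%, led by NDRG1 (-1.69 ± 0.06), a stress-responsive gene, and HK2 (-1.53 ± 0.07), a hexokinase. MIR210HG-KO then had 19 lower and 4 higher, beside 30.2% and 24.4%, led by ANKRD37 (-2.23 ± 0.12) and SLC2A3 (-2.20 ± 0.10).

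Partners of VHL in the ubiquitin ligase and other genes of HIF turnover, 18 in all, were more often called lower than higher in hypoxia. All genes tested were higher and lower in 29.6% and 30.7% in WT, 29.3% and 29.5% in MIR210-KO and 25.7% and 28.3% in MIR210HG-KO, the shares beside which the list counts that follow stand. The counts were 7 higher and 11 lower in WT (median -0.30), 5 and 11 in MIR210-KO (median -0.24) and 5 and 10 in MIR210HG-KO (median -0.30). In WT the largest changes were those of NEDD8 (-1.19 ± 0.09), the modifier that activates cullin ligases, and RBX1 (-1.11 ± 0.07), the RING subunit of the VHL complex. NEDD8 (-0.92 ± 0.09) and STUB1 (-1.13 ± 0.09), a chaperone-linked ubiquitin ligase, led in MIR210-KO. In MIR210HG-KO these were ELOB (-1.10 ± 0.08), the elongin B subunit of the VHL complex, and STUB1 (-1.02 ± 0.09). Counts were the same or 1 gene apart without the 4 libraries that stood apart.

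Of 16 coactivators and transcriptional partners of HIF, 10, 11 and 10 fell and 2, 2 and 3 rose in WT, MIR210-KO and MIR210HG-KO, beside 30.7%, 29.5% and 28.3% of all genes that fell and 29.6%, 29.3% and 25.7% that rose. CITED1, a competitor for coactivator binding, was among the 2 largest in each, at -1.11 ± 0.10, -1.31 ± 0.11 and -1.05 ± 0.10, with CITED4 (-1.004 ± 0.19) in WT and the helicase RUVBL2 (-0.98 ± 0.08 and -1.02 ± 0.08) in the knockouts. Without the 4 libraries that stood apart, 4 in place of 2 rose in MIR210-KO. The list for HIF synthesis and chaperones, 14 genes, had 3 higher and 6 lower in WT, 1 and 10 in MIR210-KO and 1 and 11 in MIR210HG-KO, beside the same shares. RPTOR, the mTOR complex scaffold, fell in each (-1.24 ± 0.08, -0.86 ± 0.08 and -0.75 ± 0.08), beside MTOR in WT (-0.89 ± 0.07), EIF4EBP1 in MIR210-KO (-0.67 ± 0.08) and CCT6A in MIR210HG-KO (-0.61 ± 0.06). Without those 4 libraries, 9 in place of 6 fell and 2 in place of 3 rose in WT.

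Relatives of the members moved in both directions. Of 11 other bHLH-PAS proteins tested, the family to which alpha and beta subunits belong, 3, 4 and 6 rose and 4, 2 and 2 fell in the 3 genotypes in hypoxia, beside 29.6%, 29.3% and 25.7% of all genes that rose and 30.7%, 29.5% and 28.3% that fell. ARNTL, the clock protein BMAL1, rose in each, by 1.18 ± 0.09, 0.65 ± 0.10 and 0.84 ± 0.10, with AHR in WT (0.96 ± 0.11) and AHRR in MIR210-KO (0.99 ± 0.06) and MIR210HG-KO (0.86 ± 0.06). Without the 4 libraries that stood apart, 2 in place of 4 fell in WT. In MIR210-KO against WT, 5 were higher and 3 lower in normoxia, beside 22.6% and 21.6%, led by ARNTL2 (1.31 ± 0.07), a paralog of ARNTL, and NPAS3 (0.83 ± 0.24). In hypoxia 6 were higher and 1 lower, beside 28.2% and 27.7%, led by ARNTL2 (1.02 ± 0.07) and SIM1 (0.96 ± 0.10). Other enzymes that use oxygen and could act as sensors, 14 tested, had 5 higher and 5 lower in WT, 4 and 6 in MIR210-KO and 5 and 6 in MIR210HG-KO, counts close to the share of all genes in WT (29.6% and 30.7%) and beside 29.3% and 29.5%, and 25.7% and 28.3%, in the knockouts. The hydroxylase JMJD4 fell in each (-0.87 ± 0.08, -0.97 ± 0.09 and -0.62 ± 0.08), and TET1, which oxidises methylcytosine, rose in MIR210-KO (1.00 ± 0.11) and MIR210HG-KO (1.10 ± 0.11). JMJD7 fell in WT (-1.48 ± 0.52, adjusted p = 0.0147) at mean levels under 0.50 CPM. Without the 4 libraries that stood apart, 7 in place of 5 of these enzymes rose in WT.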

How the data were processed

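Total RNA was sequenced after TRIzol extraction with a NEBNext Ultra kit, per the labels' protocols. The values deposited by the authors are raw read counts, in a separate table for each oxygen level, so that oxygen level and table cannot be told apart. The submitters' processing notes name the GRCh38 build, STAR (2.6.1d), featureCounts (1.5.0-p3), edgeR (3.24.3) and DESeq2 (1.20.0), with no roles. Neither strandedness nor an annotation version is given in the sources used here; positions and lengths in the tables equal GENCODE release 29 for all 10 members.

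With edgeR 4.0.16 in R 4.3.3, filterByExpr (minimum count 10) kept 19952 of 58735 genes and TMM factors scaled the libraries. A single quasi-likelihood fit over the 24 libraries, with 6 group means, gave 12 two-sided contrasts, adjusted by Benjamini-Hochberg over all genes tested with a threshold of 0.05. Correlations used log2 of CPM plus 0.5. The fit was checked on simulated counts. No pair of libraries in a group agreed within sampling noise.

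The members and the 6 gene lists were chosen with earlier results of these data known. Named are all 10 members, MIR210HG and MIR210, genes overlapping a member, for each list the 2 called genes with the largest change in each comparison described, and for each member the 3 protein-coding genes with the highest r, of which 1 is not reported here. Alternatives were RLE and upper quartile factors, no filter or a stricter one (1 CPM in 4 libraries), DESeq2 1.42.0, a replicate block, fits to the libraries of 1 oxygen level or 1 genotype, leaving out the 4 libraries that stood apart, and leaving out each library.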

Additional observations from a re-analysis of the deposited data

Results flagged for a closer look

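In 60 groups of 4 libraries (10 members in 6 groups), 4 groups had 1 library far from the other 3; chance alone does this in about 1 group in 20. Hypoxia MIR210-KO 1, one of the libraries that stood apart, was the lowest of its group for HIF1AN, at 107 CPM against 124 to 125 CPM, and the highest for EGLN3, at 34.0 CPM against 29.2 to 29.9 CPM. Hypoxia MIR210HG-KO 3 was the highest for ARNT, at 102 CPM against 97.7 to 98.4 CPM. Normoxia WT 4 had 0 CPM of HIF3A, where the other 3 libraries had 0.10 to 0.12 CPM from 3 counts each.

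Of 30 differences of the oxygen response between genotypes, 8 passed an adjusted p of 0.05 (edgeR quasi-likelihood interaction). Of all genes tested, 12.5% had a positive and 14% a negative difference for MIR210-KO minus WT. The shares were 10.2% and 12.2% for MIR210HG-KO minus WT, and 2.03% and 1.51% for MIR210HG-KO minus MIR210-KO. MIR210-KO minus WT gave -0.31 for HIF1A, 0.47 for EPAS1, 0.21 for ARNT and 0.40 for HIF1AN. MIR210HG-KO minus WT gave 0.45 for HIF1AN and 0.29 for EGLN3. MIR210HG-KO minus MIR210-KO gave -0.40 for EPAS1 and 0.30 for EGLN1. The causes were not tested.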

How the results depend on the processing

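Of 913 member log2 changes under alternatives other than leaving out a library, 828 kept direction and call, 25 lost the call, 30 gained it and 30 changed sign; with 1 library left out these were 2708, 70, 34 and 68 of 2880. None of the 18 results that changed sign was called. Upper quartile factors moved the median of all genes by 0.094, 0.14 and 0.14 in the low-oxygen comparisons of WT, MIR210-KO and MIR210HG-KO. The number of members called moved for MIR210HG-KO minus WT from 2 to 1 with RLE factors or no filter and from 1 to 3 with a library left out. It moved for low oxygen in MIR210-KO from 9 to 5 with upper quartile factors, for MIR210HG-KO against WT in normoxia from 4 to 8 without the 4 libraries that stood apart, and for MIR210HG-KO minus MIR210-KO from 2 to 1 with no filter, 4 with DESeq2 and 5 without those libraries. All genes called in this last comparison numbered 707, against 1096 with DESeq2, 2144 without those libraries and 457 to 1106 with a library left out. The causes were not tested.

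Values that changed sign were as follows. For low oxygen in WT, ARNT2 was 0.026 with RLE factors, 0.093 with upper quartile factors, 0.00084 with no filter, 0.020 with the stricter filter, 0.026 with DESeq2, 0.14 without the 4 libraries, 0.020 in the fit to 1 genotype and -0.071 to 0.050 with a library left out, and EPAS1 was 0.026 with upper quartile factors. For low oxygen in MIR210HG-KO, HIF1A was 0.024 (RLE), 0.14 (upper quartile), 0.025 (stricter filter), 0.023 (DESeq2), 0.044 (without the 4 libraries), 0.018 (1 genotype) and -0.032 to 0.054 with a library left out. EPAS1 was there -0.0013 with no filter, -0.025 without the 4 libraries and -0.015 to 0.033 with a library left out. With upper quartile factors, MIR210-KO against WT in hypoxia gave 0.0027 for ARNT and 0.035 for EGLN3, and MIR210-KO minus WT gave 0.014 for VHL and 0.021 for EGLN3. Without the 4 libraries, MIR210HG-KO minus WT gave -0.065 for ARNT and -0.080 for ARNT2, and MIR210HG-KO minus MIR210-KO gave -0.037 for HIF1AN. VHL in that last comparison was 0.0028 with RLE factors and 0.0016 with DESeq2. EGLN3 in MIR210-KO against WT in normoxia was -0.0064 in the fit to 1 oxygen level. HIF3A in MIR210HG-KO against MIR210-KO in normoxia was -0.019 with upper quartile factors.

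With a library left out, HIF3A ranged from -0.49 to 0.095 (low oxygen, MIR210-KO), -0.49 to 0.044 (low oxygen, MIR210HG-KO), -0.31 to 0.32 and -0.25 to 0.18 (MIR210HG-KO against MIR210-KO, normoxia and hypoxia) and -0.37 to 0.26 (their responses). EGLN3 ranged from -0.039 to 0.068 and -0.090 to 0.0093 (MIR210-KO against WT, normoxia and hypoxia) and -0.099 to 0.010 (MIR210-KO minus WT), ARNT from -0.023 to 0.055 (MIR210HG-KO minus WT) and VHL from -0.023 to 0.023 (MIR210HG-KO minus MIR210-KO).

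The replicate numbers did not pair the libraries: 2 of 36 same-numbered pairs had deviations correlated over 0.1, and 6 libraries correlated best with their own number. With a replicate block, HIF3A gave -0.0026 and 0.017 for MIR210HG-KO against MIR210-KO in normoxia and hypoxia and 0.020 for their responses, and HIF1AN in low oxygen in MIR210HG-KO was called (-0.19, adjusted p = 0.0405 by edgeR). The block changed no other member call. Fits to 1 oxygen level or genotype cannot give the 3 response comparisons. Counts of up to 17 limit HIF3A.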
